A study of Mus musculus with 35 samples.

Results

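Single bone marrow stem cells were compared by whether they carried the message of Cxcr4. Of the 12 single SP cells with an array of their own, 5 had the Cxcr4 probe set at a log2 intensity of 9 or more and are called Cxcr4-positive, and the other 7 are called Cxcr4-negative. SP (side population) cells are marrow cells that pump out a DNA-binding dye, a property of haematopoietic stem cells. Cells came from C57Bl/6 male mice (C57Bl/6 CD45.1 and 7 to 9 weeks old in the methods), for which the labels name no treatment, were Sca-1 positive and Gr-1 negative, and lay at the tip of the SP tail. Each cell was lysed alone, its mRNA was amplified as 3′ cDNA by global single cell RT-PCR, and the product was hybridised to an Affymetrix mouse array. The series held 35 arrays, among them 5 of single-cell equivalents (SCE), which are aliquots of 1 lysate of 40 SP cells and so share 1 pool of RNA. A further 18 arrays came from 9 ten-cell samples (10 cells per amplification): 3 of the lower SP (LSP), 3 of the upper SP (USP) and 3 of CD8 T cells, each hybridised on a pair of arrays. The methods give 1 mouse as the source of marrow for a single-cell experiment, and no label ties a cell to a mouse, so cells may share an animal and p-values measure the spread between these cells only. The cells of each group were chosen by their measured Cxcr4 intensity, so Cxcr4 itself is described and was left out of every test.

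Cxcr4 is the G protein-coupled receptor for the chemokine Cxcl12, which marrow stromal cells secrete. Ligand binding activates inhibitory G proteins, PI3 kinase, Akt and regulators of the cytoskeleton, and receptor kinases and arrestins then switch the signal off. In the marrow this pair of ligand and receptor is known for the homing and retention of haematopoietic stem cells, and its blockade releases them into the blood.

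The 5 Cxcr4-positive cells had Cxcr4 intensities of 1147.1 (cell B), 3727.0 (cell C), 2615.0 (cell D), 748.3 (cell E) and 594.8 (cell J). The 7 Cxcr4-negative cells lay at 35 (cell A), 272.2 (cell F), 43.1 (cell G), 21.0 (cell H), 387.1 (cell I), 44.3 (cell K) and 85.9 (cell L). Cell J was thus the nearest above the threshold and cell I the nearest below it, and cells F and I stood between the positive cells and the other 5 negative ones. The mean log2 level was 10.43 ± 1.14 (SD, n = 5) in the positive and 6.22 ± 1.58 (SD, n = 7) in the negative cells, a gap that the choice of groups fixed. The 5 positive cells held 90.9% of the Cxcr4 intensity summed over the 12 cells.

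Aliquots of pooled lysate did not show this spread. All 5 SCE arrays were above the threshold, with intensities from 727.2 to 1744.4 and a mean log2 level of 9.92 ± 0.54 (SD, n = 5), whereas the SD over the 12 single cells was 2.56. On the linear scale the mean intensity was 810.1 over the 12 single cells and 1031 over the 5 SCE. In the ten-cell samples, whose values were made with other settings (they hold negative values, which the single-cell arrays do not) and so are only set beside these, the mean log2 level was 11.30 ± 0.71 in LSP, 10.82 ± 0.29 in USP and 8.97 ± 0.39 in CD8 (SD, n = 3 each).

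**Figure D1:**
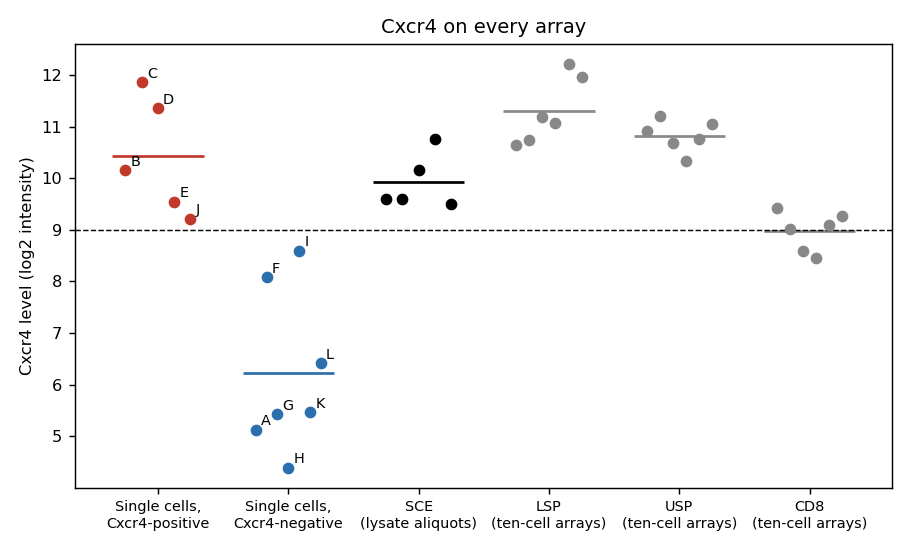
Cxcr4 level (log2 intensity) on each of the 35 arrays, with 1 point per array, a bar at each group's mean and a dashed line at the threshold of 9; single cells carry their letters. The 12 single cells run from 4.39 to 11.86, while the 5 SCE arrays lie between 9.51 and 10.77.

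The arrays of both groups were alike in overall yield. At a log2 level of 9 or more, which is called detection here, 1194 to 1330 probe sets were detected per Cxcr4-positive cell (mean 1283 ± 53.7, SD, n = 5) and 1199 to 1489 per Cxcr4-negative cell (mean 1313 ± 99.6, SD, n = 7; exact two-sided permutation test, p = 0.583), against 1351 to 1563 per SCE array. Pearson's r between the log2 levels of 2 arrays was taken over the 2070 probe sets detected in at least 3 of the 12 cells. It was 0.25 to 0.31 in the 10 pairs within the positive cells and 0.23 to 0.32 in the 21 pairs within the negative cells. In the 35 pairs between them it was 0.21 to 0.34, and among the SCE 0.40 to 0.47. Cells of the same Cxcr4 class were therefore no closer to each other in range than cells of different classes. Of 12422 probe sets, 184 were detected in all 12 cells and 8207 in none.

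The identity of the cells was checked on marker genes. Lmo2, a stem cell transcription cofactor, was detected in 12 of 12 cells, as was Ctla2b, a gene of a protease inhibitor family whose near-identical relatives may share signal with it. Kit, the stem cell factor receptor, was detected in 0 of 12 cells, and Ly6a, which encodes Sca-1, was not analysed here. By quantitative PCR the study found Kit message in part of its single stem cells. It states that a message undetected on these arrays need not be absent. Of the B lineage markers 16 of 17 on the array, and of the T and NK cell markers 18 of 20, were detected in no single cell, the defining Cd79a, Pax5, Cd3e and Cd8a among them. Of the granulocyte and monocyte markers 17 of 23 were detected in no cell, including Mpo, Elane and Itgam. The summed intensity of this last list ran from 1647 to 4112 in the positive and from 3965 to 10227 in the negative cells, with the highest values in the negative cells K and L, where S100a8, a calcium-binding protein of granulocytes, gave 6878 and 6002 of 10227 and 9604. Without S100a8 the sums ran from 1633 to 3777 in the positive and from 3349 to 6450 in the negative cells. Undetected in every cell, on any of their probe sets, were also 10 of 13 erythroid, 7 of 11 megakaryocyte, 20 of 24 endothelial and stromal, and 12 of 15 dendritic and mast cell markers. The part of these markers in the differences below was not tested.

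Which other messages went with Cxcr4 was asked of 2070 probe sets, those detected in at least 3 of the 12 cells. No gene passed: limma, with Benjamini-Hochberg adjustment over the 2070 probe sets, called 0 (0%), and the lowest adjusted p was 0.0708, for a probe set assigned to several genes and so left unnamed. At an unadjusted p under 0.05 there were 119 probe sets (5.75%), of which 51 (2.46%) were higher and 68 (3.29%) lower in the Cxcr4-positive cells. Other settings of the same model called from 0 to 3 probe sets, as detailed with the processing. The groups did not overlap at 7 probe sets (0.338%), 3 of them (0.145%) higher and 4 (0.193%) lower in the positive cells. With levels floored at 7, 8 and 9 the groups remained apart at 6, 3 and 2 probe sets, since part of the separation lay below detection. There were 0 probe sets detected in all 5 positive cells and in none of the 7 negative ones, or the reverse (0%).

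The precision of this comparison was low. The median standard error of a log2 difference was 1.27, and the median 95% confidence interval reached 2.75 log2 units (6.74-fold) to either side. Standard errors varied from 0.47 to 2.56 between probe sets, so the size of difference that could be told from 0 varied as well. The median SD of a probe set was 2.31 between the 12 single cells and 1.55 between the 5 SCE arrays. Of the 2070 probe sets 1513 (73.1%) varied more between cells than between aliquots. The 2070 were chosen by detection in the single cells and not in the SCE, so this is not an even comparison of the 2 spreads. Differences of 4 or more log2 units were measured for 28 probe sets and of 2 to 4 units for 279, while 1224 differed by less than 1. The median difference was -0.07, with 46.6% of the probe sets higher in the positive cells.

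**Figure D2:**
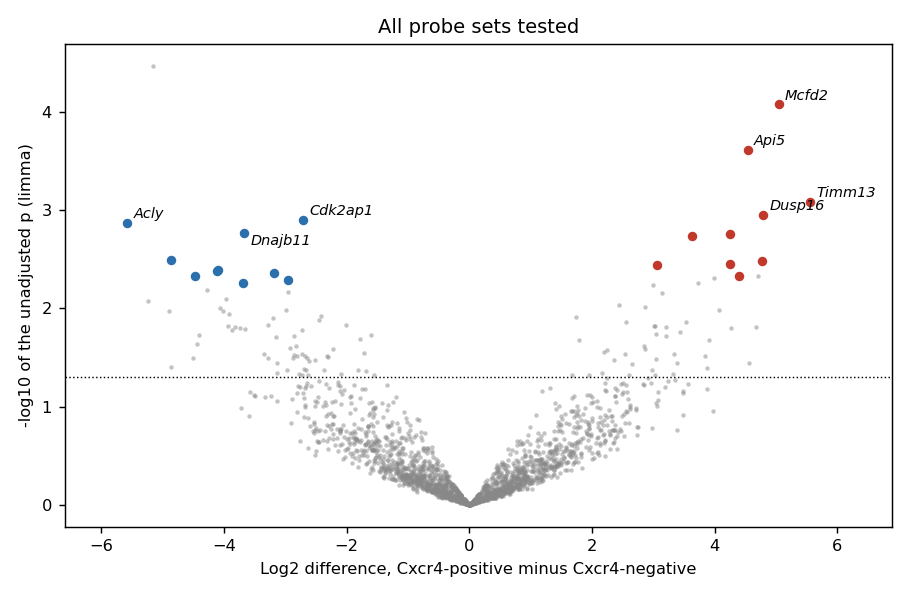
Each point is 1 of the 2070 probe sets, by its log2 difference (Cxcr4-positive minus Cxcr4-negative) and the -log10 of its unadjusted p in limma; the dotted line marks an unadjusted p of 0.05, and the 10 genes of lowest p in each direction are coloured. Mcfd2 and Api5 stand highest on the right and Cdk2ap1 and Acly on the left, and the highest point of all is the unnamed probe set at -5.15.

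Among genes with higher levels in the Cxcr4-positive cells, the lowest p belonged to Mcfd2, a calcium-binding protein that helps carry coagulation factors out of the endoplasmic reticulum. Its log2 levels were 7.72, 10.79, 10.60, 9.76 and 11.65 in cells B, C, D, E and J, and ran from 3.31 to 7.27 with a median of 5.42 in the 7 negative cells. The groups did not overlap, and the difference was 5.04 (SE 0.89, 95% confidence interval 3.11 to 6.98, limma adjusted p = 0.0873). All 7 negative cells were below detection, so the size is uncertain. The positive mean, which includes cell B below detection, was 2.15-fold above the detection level. With levels floored at 7 and 8 the difference was 3.07 and 2.16. In the SCE it was detected in 3 of 5 arrays, with a mean of 8.32 ± 2.88 (SD, n = 5). Api5, an inhibitor of apoptosis, was at 10.25, 11.57, 10.97, 9.37 and 10.54 in cells B, C, D, E and J. The negative cells ran from 3.55 to 9.07 with a median of 5.89, again without overlap, although cell A at 9.07 lay close to the positive cell E at 9.37. The difference was 4.54 (SE 0.91; 95% confidence interval 2.58 to 6.50; limma adjusted p = 0.168).

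Timm13, a chaperone of protein import into mitochondria, was detected in all 5 positive cells. It was at 13.32, 13.77, 13.69, 13.46 and 12.22 in cells B, C, D, E and J, and from 5.07 to 13.38 with a median of 6.44 in the negative cells. Cell A, at 13.38, was the negative cell inside the positive range, and cell G, at 9.84, was the only other negative cell with the message detected. The difference was 5.56 (SE 1.28, limma adjusted p = 0.381). Without cell A it was 6.50 (limma adjusted p = 0.0169), but taking out the overlapping cell itself parts the groups, so this is no support. Dusp16, a phosphatase that turns off JNK and p38 kinases, was at 12.47, 12.43, 10.75, 8.76 and 8.19 in the positive cells, in the same order, and from 3.55 to 9.43 in the negative ones. Only cell L of the negative cells, at 9.43, reached detection. Pura, a protein that binds single-stranded nucleic acid, differed by 4.25 (SE 1.08) and overlapped between the groups only through cell E at 8.32 and cell A at 9.25.

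The other members of the 10 belonged to several kinds of cell machinery. Psmd13, a regulatory subunit of the proteasome, was detected in 3 of 5 positive and 0 of 7 negative cells, and Rab7, the GTPase of late endosomes, in 4 of 5 and 0 of 7. Rab7 was at 10.75, 11.78, 11.22, 9.96 and 7.85 in cells B, C, D, E and J, against 2.70 to 8.83 in the negative cells, so that only cell J fell among them. Another Rab7 probe set, detected in no cell, differed by 0.46. Gpank1, a G-patch protein, and Akap8l, a nuclear protein related to the kinase A anchors, differed by 4.77 (SE 1.32) and 4.40 (SE 1.29), with cell B the lowest of the positive cells for both. A second tested Gpank1 probe set differed by 2.99 in the same direction, and both carry the maker's mark for probes shared by similar sequences. The RIKEN gene 4833420G17Rik differed by 3.06 (SE 0.86) and was detected in 4 of 5 positive cells, 0 of 7 negative cells and 0 of 5 SCE arrays. The positive mean was 2.48-fold above the detection level for Rab7 and 1.34-fold for 4833420G17Rik, each with a positive cell below detection. That of Psmd13, 8.97, was itself below the detection level. Adjusted p-values of all 10 lay between 0.0873 and 0.480. Of the 10, 4 were detected in no negative cell and so passed the filter only through the positive cells. Their counts of detection are therefore no support.

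Among genes with lower levels in the Cxcr4-positive cells, Cdk2ap1, which binds and restrains the cell cycle kinase Cdk2, had the lowest p. It was at 7.77, 6.65, 7.72, 8.09 and 7.66 in cells B, C, D, E and J, below detection in all 5, and from 8.53 to 11.25 with a median of 10.90 in the negative cells, 6 of which were above detection. The groups did not overlap, and the difference was -2.71 (SE 0.66; 95% confidence interval -4.14 to -1.28; limma adjusted p = 0.381). The SCE mean of 10.45 ± 0.70 (SD, n = 5) was at the level of the negative cells. The negative mean was 2.45-fold above the detection level for Cdk2ap1 and 2.13-fold for Acly, each with a negative cell below detection. Acly, the lyase that makes cytosolic acetyl-CoA for fatty acid and sterol synthesis, was at 4.52, 6.04, 4.84, 3.07 and 4.06 in the positive cells in the same order. The negative cells ran from 3.78 to 12.66 with a median of 10.57, and cell G at 3.78 was the only one of them below 9. Its difference was -5.58 (SE 1.37, limma adjusted p = 0.381). Without cell G it was -6.63 (limma adjusted p = 0.0128), but this takes out the negative cell that lay among the positive ones, so it is no support.

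A pair of further genes did not overlap between the groups as measured, although the values nearest to each other lay below detection. Dnajb11, a co-chaperone of the endoplasmic reticulum, was at 6.91, 5.78, 7.05, 6.04 and 7.37 in cells B, C, D, E and J, and from 7.77 to 13.13 with a median of 9.90 in the negative cells. Babam2, a subunit of the BRCA1-A and BRISC complexes of ubiquitin removal, was at 6.04, 4.14, 3.78, 4.23 and 6.64 in the same cells, and from 6.77 to 13.36 with a median of 7.95 in the negative ones. Both had their highest levels in cells H, K and A, where Cxcr4 was between 21.0 and 44.3. Cell G, with Cxcr4 at 43.1, was at 8.37 and 7.95. These Cxcr4 intensities were all below detection, where levels have little order. The differences were -3.67 (SE 0.93, limma adjusted p = 0.381) for Dnajb11 and -4.11 (SE 1.18, limma adjusted p = 0.480) for Babam2. Babam2 was detected in only 3 of 7 negative cells, and its groups overlapped with levels floored at 7, where the difference was -2.12 (-1.45 at 8). Those of Dnajb11 overlapped with levels floored at 8, where the difference was -2.34.

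The rest of the 10 lower genes overlapped between the groups. The zinc finger gene Zfp758, the small cysteine-rich protein gene Plac8 and the splicing factor Sfpq were detected in 0 of 5 positive cells and in 4, 4 and 5 of the 7 negative cells. Sfpq differed by -4.48 (SE 1.31) on a probe set with the shared-sequence mark and by -4.90 on another. Its other 3 probe sets were detected in no cell and differed by 1.40, 0.15 and -0.08. Grcc10 was detected in 7 of 7 negative cells, within 11.38 to 13.27, and in 2 of 5 positive cells. The kinase Slk and the ubiquitin ligase subunit Wdr26 were each detected in 6 of 7 negative cells, and in 2 and 1 of 5 positive cells. Their differences were -2.96 (SE 0.88) and -3.69 (SE 1.11). Other probe sets of Wdr26, detected in 1 or 2 cells, differed by 1.13, -0.41 and 0.43. The limma adjusted p-values of the 10 lay between 0.381 and 0.480. Of these 10, 7 were detected in no positive cell and so passed the filter only through the negative cells. Their counts of detection are likewise no support. For 18 of the 20 genes named in both directions the SCE mean lay between the means of both groups, beside 62.5% of the 307 probe sets that differed by 2 or more. The 20 were chosen for low p, with differences of 3.06 to 5.56 or -5.58 to -2.71. A wider gap more readily holds an outside mean, so these shares are not an even comparison and are no support.

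**Figure D3:**
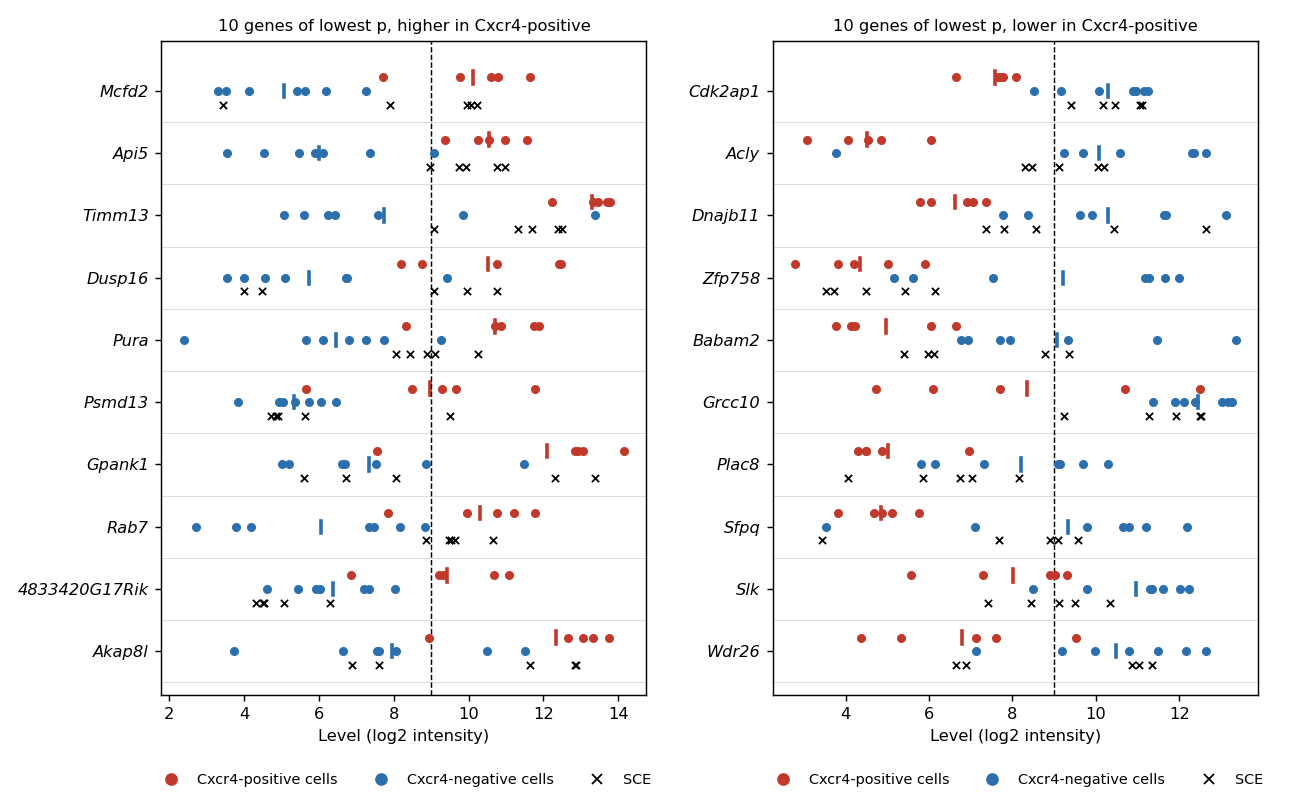
Log2 intensity of the 10 genes of lowest p in each direction (higher in Cxcr4-positive on the left, lower on the right), with 1 point per cell, a short bar at each group's mean, crosses for the 5 SCE arrays and a dashed line at the detection level of 9. Mcfd2 and Api5 on the left and Cdk2ap1, Dnajb11 and Babam2 on the right show no overlap between the 5 positive and 7 negative cells, in part at levels below detection.

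Levels that ran with Cxcr4 across the 12 cells were also listed, as a description over points that share the amplification method and array scaling. Pearson's r with the log2 Cxcr4 level was highest for Api5 (r = 0.84, n = 12), Ssna1 (0.82), Mcfd2 (0.80), Rab7 (0.76) and Utp14a (0.74), and lowest for Babam2 (-0.90), Dnajb11 (-0.86), Cdk2ap1 (-0.85), Ybx3 (-0.82) and 1810009A15Rik (-0.82). Over all tested probe sets r ran from -0.90 to 0.84 with a median of -0.02. Cxcr4 was below detection in all the negative cells, where levels have little order, so r rests in part on that order. Babam2 was itself below detection in most of the 12 cells. Ssna1, a microtubule-binding protein, was at 7.77, 13.36, 11.51, 11.76 and 9.71 in cells B, C, D, E and J, and its one negative cell above detection was cell I, at 11.04, the negative cell with the most Cxcr4. Ybx3, a cold shock domain protein that binds RNA, was lowest in cells D and C, at 3.98 and 4.98, which held the most Cxcr4, and lay between 8.22 and 10.33 in the negative cells.

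The machinery around the receptor was looked at next, with 32 genes of ligands, G proteins, kinases and regulators on the array. Only 9 of them were detected in enough cells to be tested, 13 were detected in no cell, and 0 of the 9 passed at an adjusted or an unadjusted p under 0.05, beside 5.75% of all probe sets. Cxcl12, the ligand, was detected in 0 of 12 cells, and Mif, which can also bind the receptor, in 0 of 12. The median difference of the 9 was 0.33, with a range of -1.24 to 2.20, where all tested probe sets had a median of -0.07.

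Of the inhibitory G protein alpha subunits, which pass on the Cxcr4 signal, Gnai2 was detected in both groups, Gnai3 in 0 of 5 positive and 2 of 7 negative cells and Gnai1 in 0 of 12. Gnai2 was detected in 4 of 5 positive and 5 of 7 negative cells, with log2 levels of 10.74, 11.70, 10.58, 8.56 and 10.40 in cells B, C, D, E and J and of 5.86 to 11.73 (median 10.74) in the negative cells. The ranges overlapped almost fully, with a difference of 0.33 (SE 1.04, 95% confidence interval -1.91 to 2.57), or -0.37 without cell I. Gnb1, a beta subunit, was detected in 3 of 5 and 4 of 7 cells and differed by 0.72 (SE 1.61). The gamma subunits Gng10 and Gng11 were each found in few cells of either group, 2 of 5 and 2 of 7 for Gng10 and 1 of 5 and 2 of 7 for Gng11. Grk6, a kinase that shuts the receptor off, was detected in 4 of 5 and 4 of 7 cells.

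Further down the pathway the groups overlapped as well. Ptprc, the phosphatase CD45 that acts on Src and Jak kinases, was at 8.23, 9.22, 9.07, 10.06 and 9.16 in cells B, C, D, E and J and from 2.17 to 9.82 (median 8.10) in the negative cells. Cells H and L, at 2.17 and 2.61, were far below the other 5 negative cells, and the difference was 2.20 (SE 1.39, 95% confidence interval -0.80 to 5.19). Akt1, the kinase downstream of PI3 kinase, was detected in 2 of 5 positive and 6 of 7 negative cells and differed by -1.24 (SE 1.08, 95% confidence interval -3.57 to 1.09), or by 0.93 with cells split at a log2 Cxcr4 level of 10. Stat3, a transcription factor activated by Jak kinases, was detected in 3 of 5 and 3 of 7 cells and differed by 1.81 (SE 1.44). Vamp2, a vesicle fusion protein on the list, was detected in 3 of 5 and 4 of 7.

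Genes that hold stem cells in the marrow were mostly below detection. Of 32 integrins, adhesion molecules and matrix proteases on the array 20 were detected in no cell on any of their probe sets, including Vcam1, a ligand of marrow retention, and Cd44. Itga4, the integrin chain that binds Vcam1, was detected in 1 cell, on 1 of its 3 probe sets. Of the 5 tested, 3 had higher and 2 lower means in the positive cells (4 and 1 under every other scaling and floor, where Itga6 changed side), with a median difference of 0.54 (0.21 and 0.22 with levels floored at 7 and 8) and none at an unadjusted p under 0.05. F11r, the junction protein JAM-A, was at 12.54, 7.89, 3.98, 11.52 and 6.24 in cells B, C, D, E and J and from 8.23 to 11.91 (median 11.48) in the negative cells, so that the positive cells lay on both sides of the negative ones. Its difference was -2.51 (SE 1.36, limma adjusted p = 0.942). Cd81, a tetraspanin, was detected in 5 of 5 positive and 5 of 7 negative cells (difference 0.70, SE 0.99, and -0.0698 without cell G). The integrin chains Itga6 and Itgav and the protease inhibitor Timp3 were detected in 2, 3 and 2 of the positive cells and in 1, 4 and 1 of the negative cells.

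In the list of cytoskeleton and migration genes, 1 of 19 tested members had an unadjusted p under 0.05, a share near the 5.75% of all probe sets. This was Coro1a, coronin, an actin-binding protein of leukocytes, which was at 10.44, 4.83, 10.75, 6.28 and 9.38 in cells B, C, D, E and J and within 10.73 to 12.03 (median 11.35) in all 7 negative cells. Only cell D of the positive cells reached the negative range, and the difference was -2.99 (SE 1.00; 95% confidence interval -5.15 to -0.83; limma adjusted p = 0.600). Tmsb4x, the actin-sequestering thymosin beta 4, was detected in 12 of 12 cells and differed by -0.72 (SE 0.52). Rhoa, a GTPase of stress fibres, was detected in 1 of 5 positive and 5 of 7 negative cells (difference -1.61, SE 1.05), and Dock2, the Rac activator of lymphocyte migration, in 1 of 5 and 2 of 7 (difference 1.31, SE 1.06). The list's median difference was 0.02, with 11 members higher and 8 lower (9 and 10 after quantile normalisation).

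**Figure D4:**
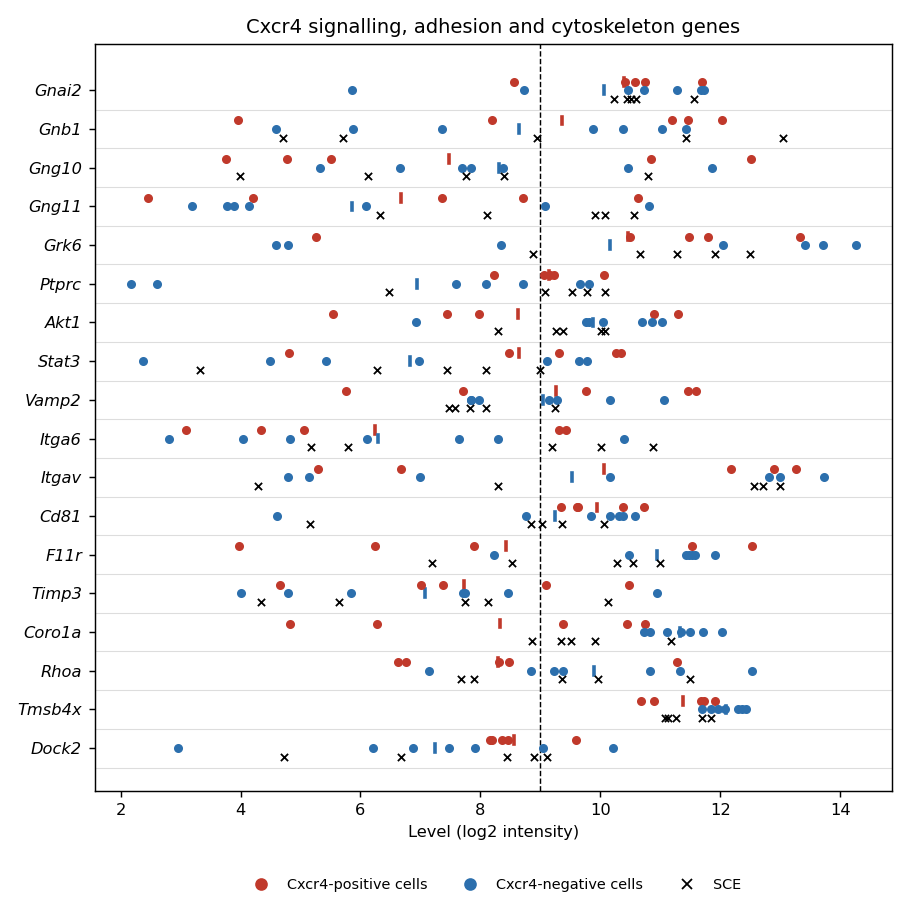
Log2 intensity of 18 tested genes of Cxcr4 signalling (Gnai2 to Vamp2), adhesion (Itga6 to Timp3) and the cytoskeleton (Coro1a to Dock2), with 1 point per cell, a short bar at each group's mean, crosses for the 5 SCE arrays and a dashed line at the detection level of 9. The 5 positive and 7 negative cells overlap at each of the 18 genes, and Coro1a is at 10.73 or more in all 7 negative cells.

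Stem cell genes were spread over both groups. Among tested transcription factors of stem cells 6 had higher and 6 lower means in the positive cells (8 and 4 with levels floored at 8). Lmo2 differed by 0.27 (SE 0.54) and stayed within 9.83 to 11.44 in the positive and 9.87 to 11.12 in the negative cells, while its other tested probe set, detected in 5 of 12 cells, differed by -1.31 (SE 1.26). Lyl1 and Tal1, basic helix-loop-helix partners of Lmo2, varied far more from cell to cell: Lyl1 ran from 6.64 to 14.17 in the positive and from 7.11 to 14.70 in the negative cells (difference -1.36, SE 1.80, or 1.11 with cells split at a log2 Cxcr4 level of 8), and Tal1 differed by 1.68 (SE 1.36). Meis1, a homeobox factor of stem cells, was detected in 3 of 5 and 2 of 7 cells (difference 1.73, SE 1.65).

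Surface proteins and pumps of stem cells had a median difference of -0.06 over 11 tested genes, with 5 higher and 6 lower (6 and 5 after median centring). Abcg2, the pump that gives SP cells their dye efflux, was at 10.72, 2.04, 4.10, 12.33 and 10.08 in cells B, C, D, E and J and from 6.17 to 11.16 (median 10.23) in the negative cells. Abcg2 was detected in 3 of 5 positive cells, though not in cells C and D with the most Cxcr4, and in 4 of 7 negative cells. The group difference was -1.07 (SE 1.79, 95% confidence interval -4.94 to 2.80), which turned to 0.31 and 0.28 with levels floored at 7 and 8 and to 0.38 without cell C. Tie1, a receptor tyrosine kinase of endothelium and stem cells whose probe set also carries the shared-sequence mark, was at 7.83, 6.99, 10.46, 9.41 and 6.48 in the positive cells and from 8.17 to 12.44 (median 11.89) in the negative ones (difference -2.37, SE 1.05, limma adjusted p = 0.835, unadjusted p = 0.0427). Eng, endoglin, the TGF-beta co-receptor, was at 13.34, 14.01, 13.67, 14.08 and 10.77 in cells B, C, D, E and J. The negative cells ran from 6.06 to 14.31 with a median of 10.26 and only cell I, at 14.31, and cell L, at 13.32, were close to the 4 highest positive cells (difference 2.57, SE 1.30, limma adjusted p = 0.914). The 4 tested genes of the TGF-beta and BMP pathway had higher means in the positive cells on the probe sets used, by 0.29 to 2.57 (3 of 4 with levels floored at 8). A second tested probe set of Smad1 was lower, by -0.92 (SE 1.93) against 2.41 for the one used. Of the 4, 0 had an unadjusted p under 0.05. Csnk2a2, a catalytic subunit of casein kinase 2, was above 13 in the positive cells C, D and J and at 12.85 in the negative cell G. It was otherwise at 7.83 or less (difference 3.49, SE 1.79). Its other probe sets, detected in no cell, differed by 0.06 and 0.49. For this gene quantitative PCR seemed less sensitive than the array, and the study proposes non-specific cross-hybridisation as a possible reason.

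Cell cycle genes were few above detection. In the mitotic and G1 lists more tested members had lower than higher means in the Cxcr4-positive cells, where 46.6% of all tested probe sets were higher. Of 5 tested mitotic genes 4 had lower means (3 after median centring), with a median difference of -1.59. Of 5 tested G1 cyclins, kinases and inhibitors 5 had lower means (4 with levels floored at 7 or 8), with a median of -0.89. Stmn1, the microtubule-destabilising stathmin, was at 4.41, 6.51, 10.77, 9.09 and 5.71 in cells B, C, D, E and J and from 7.53 to 13.38 (median 12.38) in the negative cells. Its difference of -4.02 (SE 1.35; 95% confidence interval -6.93 to -1.10) was the one of these 10 genes with an unadjusted p under 0.05 (p = 0.0107; limma adjusted p = 0.600). Another Stmn1 probe set, detected in no cell, differed by 0.43. Cks1b, a Cdk-binding subunit, was between 7.02 and 7.66 in all 5 positive cells, under detection, and at 5.78 to 11.60 in the negative cells, 4 of which were above detection (difference -1.86, SE 1.07). Cks2 differed by -1.59 (SE 0.87), the Cdk inhibitor Cdkn2d by -0.89 (SE 0.86), Cdk4 by -0.90 (SE 1.63) and Ccnd3, a D-type cyclin, by -0.25 (SE 1.05), or by 0.62 without cell C. Tubb5 (-0.04) and Btg1 (-0.10) counted as lower though near 0. Incenp, of the chromosomal passenger complex, was the mitotic gene with a higher mean in the positive cells (difference 1.88, SE 1.19). Of S phase and replication genes 2 were tested, Mcm2 with a lower mean (-1.25) and Rrm1 with a higher one (0.27). Both were lower with levels floored at 8.

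Ribosomal proteins were the most evenly detected of the lists. Of 20 ribosomal protein genes 14 were detected in all 12 cells, and the 16 tested had a median difference of -0.01, which was 0.06 after median centring of each array. Rpsa, the ribosomal protein also known as laminin receptor, which has many near-identical pseudogene copies, was the one furthest from 0 among them, at 13.02 ± 1.01 (SD, n = 5) in the positive and 11.70 ± 0.76 (SD, n = 7) in the negative cells (difference 1.31, SE 0.65). The proteasome subunits fell on both sides, with 8 higher and 10 lower of 18 tested. Psma1 of the core particle differed by 1.97 (SE 1.03), and Psme1 of the interferon-inducible activator by -3.49 (SE 1.83). Among HIF target and hypoxia genes 7 were higher and 5 lower of 12 (6 and 6 with floored levels), and Ddit4, a hypoxia-induced brake on mTOR, was detected in 5 of 5 positive and 4 of 7 negative cells (difference 2.31, SE 1.40). Of 12 cytokine receptor and Jak-Stat genes 8 were higher and 4 lower (median 0.59; 9 and 3 after median centring), the receptor chain Csf2ra among the former (difference 2.08, SE 1.18).

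Of the granulocyte and monocyte markers, 3 were tested. Lyz2, lysozyme, was detected in 2 of 5 positive cells and 6 of 7 negative cells, at 5.09, 8.41, 10.11, 7.69 and 9.93 in cells B, C, D, E and J and at 5.98 to 11.43 (median 10.31) in the negative cells (difference -1.75, SE 1.09). Prtn3, proteinase 3 of granules, was detected in 3 of 5 and 5 of 7 cells (difference -0.91, SE 0.94, and 0.012 without cell J). S100a8 was detected in 2 of 5 and 2 of 7 cells (difference -0.35). None of the 3 had an unadjusted p under 0.05. Hba-a1, alpha globin, one of a near-identical pair of genes, was detected in 3 of the 12 single cells and on 5 of 5 SCE arrays.

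Over 31 gene lists, 217 different genes were tested. Adjusted over all probe sets 0 were called, and at an unadjusted p under 0.05 there were 0 higher and 3 lower (Coro1a, Stmn1 and Tie1), beside 2.46% higher and 3.29% lower of all probe sets.

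**Figure D5:**
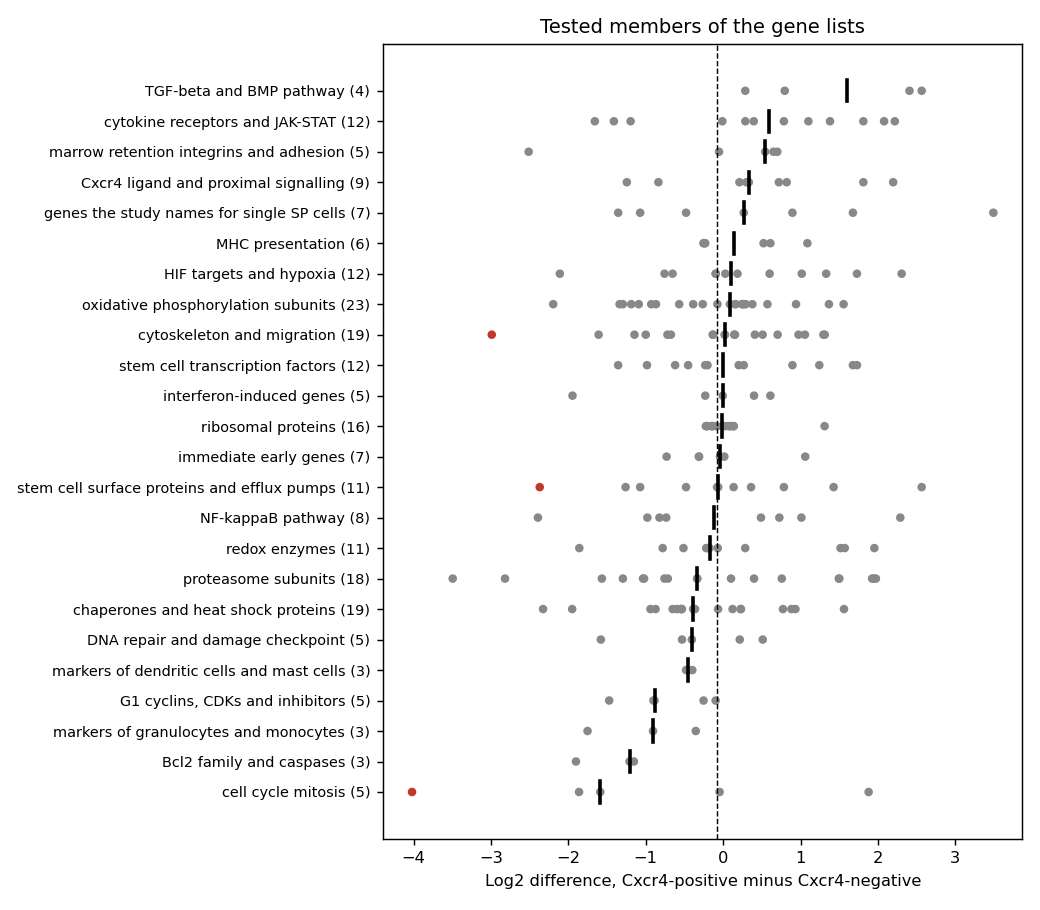
Log2 difference (Cxcr4-positive minus Cxcr4-negative) of the tested members of each list with 3 or more, with their number in parentheses, a black bar at the list's median and a dashed line at the median of all probe sets, -0.07; red points have an unadjusted p under 0.05. List medians run from -1.59 for mitotic genes to 1.60 for the TGF-beta and BMP pathway, and the 3 red points are Coro1a, Tie1 and Stmn1.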

How the data were processed

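The authors' table holds linear signal intensities, deposited with 1 column for each array (Affymetrix MG-U74Av2), already scaled to a like mean. The study's methods describe log2 RMA levels, which these values are not. Single-cell and SCE arrays held 0 values at or below 0. Control probe sets were left out (66 of 12488). Gene names came from the platform annotation, with 10833 probe sets assigned to 1 gene, 396 to several and 1193 to none. A gene was represented by its probe set of highest mean log2 level over the 35 arrays, with ten-cell values floored at 128. Arrays have no read depth. The number of cells limits the precision, as does the spread between amplifications of the same lysate (median SD 1.55 between the SCE arrays).

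Cxcr4 has 1 probe set on this array. Log2 intensities of the 12 single cells were compared with limma 3.58.1 (R 4.3.3), without covariates, over 2070 probe sets at a log2 level of 9 or more in at least 3 cells, with Benjamini-Hochberg adjustment and a threshold of 0.05. The fit was tested on simulated data. Numbers of detected probe sets were compared by an exact permutation test. Named were the 10 genes of lowest p in each direction, the up to 4 tested list members of lowest p, measured members of the signalling, adhesion and study-named lists, and the 5 genes of highest and lowest r with Cxcr4. Lists were described by counts and medians, without a test. The division of cells and the gene lists were chosen with earlier results of these data known. Alternatives were no filter, a stricter filter, quantile normalisation, median centring, floors, covariates, SCE arrays in the fit, a trended robust fit, other Cxcr4 thresholds, Cxcr4 as a continuous level, and leaving out each cell.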

Additional observations from a re-analysis of the deposited data

Results flagged for a closer look

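Of 174 sets of values looked at for a sample far from the others in its own group (Cxcr4-positive cells, Cxcr4-negative cells or SCE, gene by gene), 23 (13.2%) held one. The rule flags about 1 in 20 sets of normally distributed values. Levels here are often below detection, and the genes were partly chosen by low p in these cells, so the shares are not comparable.

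In the Cxcr4-positive cells, cell B was far below the others for Gpank1 (7.55, group median 12.94) and Akap8l (8.95, group median 13.06), and above them for Plac8 (6.96, group median 4.50). Cell C stood above the others for Dock2, at 9.60, and below them for Ccnd3, at 6.40. Cell J had the lowest Eng, at 10.77 against a group median of 13.67.

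In the Cxcr4-negative cells, cell G stood apart for 3 genes, with Acly at 3.78 and Cd81 at 4.61, both far below the other cells, and Csnk2a2 at 12.85, far above them. Cell I stood apart for Ssna1 (11.04, the highest), Ybx3 (8.22, the lowest) and Lyz2 (5.98, the lowest). Cell F had the lowest Akt1, at 6.93, and cell L the lowest F11r, at 8.23.

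Among the SCE, aliquot D had the highest Psmd13 (9.50) and Gnai2 (11.56) and the lowest Cd81 (5.17), Rpsa (10.55) and Ddit4 (8.57). Aliquot B had the highest Ssna1 (8.85) and the lowest Ptprc (6.47) and Psme1 (10.78), and aliquot E had the lowest Prtn3 (7.67).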

How the results depend on the processing

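No paired analysis was possible because the single cells carry letters and no number that both groups share. The 0 probe sets called stayed at 0 without a filter (616 of 12421 at an unadjusted p under 0.05), with quantile normalisation, median centring, floors at log2 levels of 7 and 8, a trended robust fit, cells split at a log2 Cxcr4 level of 8, and Cxcr4 as a continuous level. The count was 1 with detection in at least 6 cells (the unnamed probe set of lowest p), 3 with the number of detected probe sets as a covariate (that probe set, Mcfd2 and Swi5), 2 with the SCE in the fit (that probe set and Api5), 2 with cells split at a log2 level of 10 (Dpm3 and H2az2, both lower in cells B, C and D) and 119 without adjustment. Leaving out 1 cell gave 0 to 3 called. There were 3 without cell A (Api5, Timm13 and that probe set), 1 without cell E (that probe set) and 1 without cell G (Acly). In each case the cell left out was the one of its group nearest to, or inside, the levels of the other group. Swi5, Dpm3 and H2az2 were named after their values were seen.

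The difference in the number of detected probe sets kept its sign under each alternative, from -49.0 to -0.70 without 1 cell. Of 56 gene differences in the text, 48 kept their sign under each alternative that tested them. With cells split at a log2 level of 10 the sign turned for Akt1 (0.93), Lmo2 (-0.076) and Prtn3 (0.14), and at 8 for Gnai2 (-1.07) and Lyl1 (1.11). Per log2 unit of Cxcr4 it turned for Gnai2 (-0.067) and Lyl1 (0.0797). Floors at 7 and 8 turned Abcg2 (0.31 and 0.28). Without 1 cell, differences that crossed 0 ran from -0.37 to 0.79 for Gnai2, from -0.0698 to 0.92 for Cd81, from -2.19 to 0.38 for Abcg2, from -0.75 to 0.62 for Ccnd3 and from -1.35 to 0.012 for Prtn3. None of these differences passed the test in any setting, and the cause was not tested. Levels below detection have little order.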
